A study of Mus musculus with 6 samples.

Results

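Gas6, Pros1 and the receptor genes Axl, Mertk and Tyro3 form a small signalling family, and all 5 were described in mouse fibrosarcoma cells with and without an shRNA against Rras2. They were taken by gene symbol from the array annotation, 5 genes of 19505 measured, and each had 1 probe set. The 5 genes were selected on their levels and their shRras2 minus pLKO difference on these same arrays, so those values are given as a description, without a test. The knockdown group held 3 arrays (shRras2, replicates 4 to 6, the shRNA labelled sh#89) and the control group held 3 arrays (pLKO, replicates 1 to 3, the vector alone). All cells were of C57BL/6 strain, came from a fibrosarcoma, a malignant tumor of fibroblast-like cells, carried the Q72L form of the RAS-related GTPase Rras2, and were grown in serum-containing medium. A single shRNA was used, so other targets of it and the loss of Rras2 cannot be told apart. Whether replicates stem from separate cultures is not stated in the labels, and errors and p-values then cover only sample-to-sample spread, possibly technical.

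Gas6 and protein S, the product of Pros1, are secreted bridging proteins. One end, rich in glutamate residues that a vitamin K-dependent enzyme carboxylates, binds phosphatidylserine on dying cells, and the other end binds the receptor tyrosine kinases Tyro3, Axl and Mertk, whose initials give the name TAM. Gas6 binds all of these receptors, while protein S binds Tyro3 and Mertk. The receptors are known for clearance of dying cells and damping of innate immunity, and Axl is known for survival and invasion of tumor cells. Gas6 was first found as a gene that is expressed more highly in fibroblasts that stop dividing.

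Values are log2 signals per probe set after RMA, the authors' normalization, in which 1 unit is a doubling of signal. Across the arrays, 95% of the values of the 5222 negative-control probe sets lay below 7.92, and a level below this limit is called near background here. Levels of different genes come from different probes and are not compared, except that the brightest genes of a list are named where few of its genes passed. Rras2 itself had 9.09, 9.69 and 9.21 on shRras2 replicates 4, 5 and 6, against 10.67, 10.75 and 10.82 on pLKO replicates 1, 2 and 3, a log2 difference of -1.41 ± 0.14 (SE; limma adjusted p = 0.00163). The exact two-sided permutation test gave p = 0.1, the smallest that 3 arrays against 3 allow. Replicate 5 kept the most Rras2 signal, 48.1% of the control mean, beside 31.8% on replicate 4 and 34.6% on replicate 6. The median gene lay between 7.22 and 7.28 on the 6 arrays, and the median log2 difference of all genes was -0.01.

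Both ligand genes had more signal and all 3 receptor genes had less in the shRras2 cells. The shRras2 and pLKO arrays did not overlap for any of the 5 genes, while 25.5% of all genes measured had groups that did not overlap. Gas6 had the widest separation of the 5, with a gap of 1.91 log2 units between its nearest arrays, and Axl the narrowest, with a gap of 0.12. The differences ran from 2.12 for Gas6 to -0.40 for Tyro3.

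**Figure D1:**
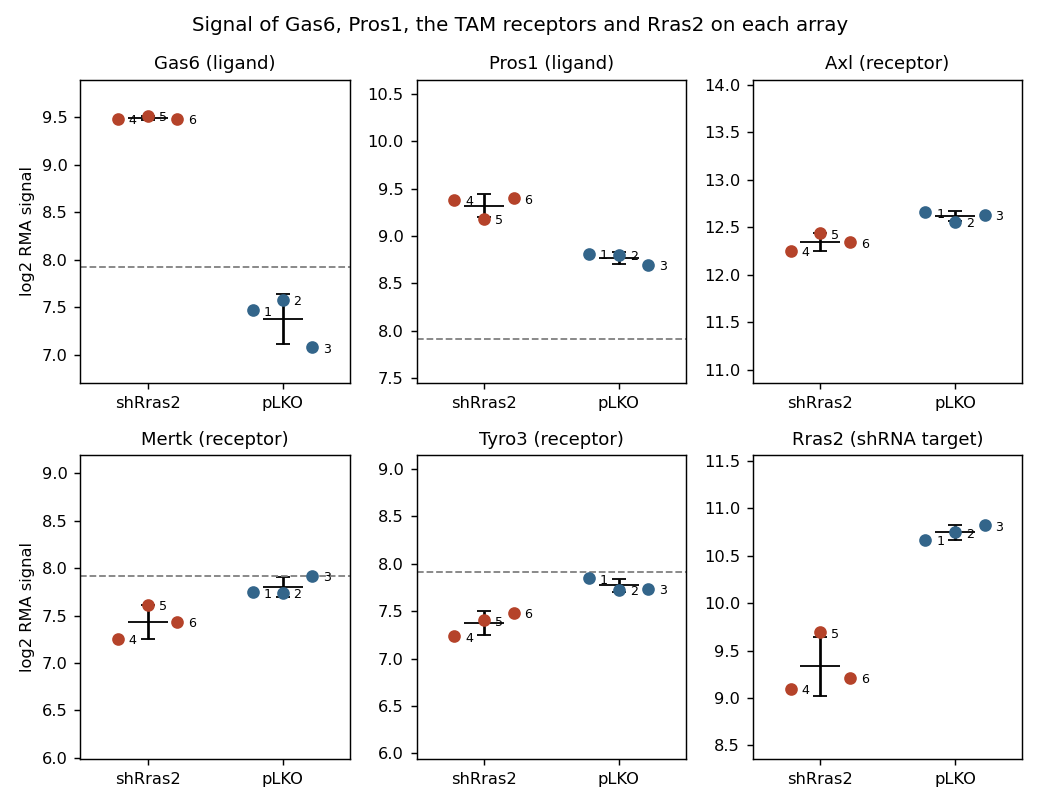
Log2 RMA signal (y axis, with the same span of log2 units in every panel) of the 5 genes and of Rras2 on each array, with shRras2 left of pLKO. Points are arrays with their replicate number, horizontal bars are group means, error bars are SDs (n = 3 each), and the dashed line is the background limit. Gas6 lies near 9.5 on all shRras2 arrays and below the dashed line on all pLKO arrays, and the receptor genes lie lower in shRras2.

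Gas6, the ligand of all TAM receptors, had log2 signals of 9.49, 9.52 and 9.49 on shRras2 replicates 4, 5 and 6, against 7.47, 7.57 and 7.08 on pLKO replicates 1, 2 and 3. All 3 shRras2 arrays were high and close together, and the pLKO arrays were low and more scattered. The means were 9.50 ± 0.02 in shRras2 and 7.37 ± 0.26 in pLKO (SD, n = 3 each), a difference of 2.12 ± 0.12 (SE from the fit over all genes) or 4.36-fold. Only 16 of the 19505 genes had a larger absolute difference. All 3 pLKO values lay near background and all 3 shRras2 values above it, so the fold is imprecise and can understate the change. Replicate 5, which kept the most Rras2, had a Gas6 signal of 443% of the pLKO mean, and replicates 4 and 6 each had 433%. Whether Gas6 or the other genes of the family follow the remaining Rras2 signal from array to array was not tested.

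Pros1 encodes the related ligand protein S, which also serves as an anticoagulant cofactor in blood. Its log2 signals were 9.38, 9.18 and 9.40 on shRras2 replicates 4, 5 and 6, against 8.81, 8.80 and 8.70 on pLKO replicates 1, 2 and 3. Every shRras2 array was above every pLKO array, and all 6 lay above background. The means of 9.32 ± 0.12 in shRras2 and 8.77 ± 0.06 in pLKO (SD, n = 3 each) differed by 0.55 ± 0.09 (SE), or 1.46-fold. Replicate 5 had the smallest excess of Pros1, with 133% of the pLKO mean, beside 153% on replicate 4 and 154% on replicate 6. In all, 2.96% of the genes measured had a larger absolute difference.

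The sequences before the start of the ligand genes are shown because both ligands had more signal in shRras2. They are the 250 bases before the start in RefSeq, build GRCm38.p6, each written 5′ to 3′ on the strand of its gene. Gas6 lies on the minus strand, chr8:13494536-13494785, and Pros1 on the plus strand, chr16:62854057-62854306. Capitals mark the GC box, the letters GGGCGG or, on the other strand, CCGCCC, which zinc-finger factors of the Sp family are known to bind.
Gas6: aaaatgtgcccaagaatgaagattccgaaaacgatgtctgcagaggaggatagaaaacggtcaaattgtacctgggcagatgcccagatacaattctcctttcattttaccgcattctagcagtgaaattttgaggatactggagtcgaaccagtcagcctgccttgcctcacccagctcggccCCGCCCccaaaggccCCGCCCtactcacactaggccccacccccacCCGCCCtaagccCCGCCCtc
Pros1: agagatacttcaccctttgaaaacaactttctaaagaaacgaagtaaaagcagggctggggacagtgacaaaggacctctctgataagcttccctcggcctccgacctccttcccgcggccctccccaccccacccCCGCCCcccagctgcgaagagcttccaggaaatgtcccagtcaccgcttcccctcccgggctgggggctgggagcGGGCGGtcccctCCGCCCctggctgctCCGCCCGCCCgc
The window of Gas6 held 4 GC boxes, which begin 66, 51, 20 and 8 bases before the start. That of Pros1 held 5, which begin 114, 39, 27, 12 and 8 bases before it, and the last pair overlap each other. At least 1 GC box was present in 32.7% of all 32851 promoter windows of this length, so it is a common motif. The share of windows with 4 or 5 GC boxes was not computed. Neither window held the AP-1 motif TGANTCA (on either strand, present in 6.75% of windows) or the TEAD motif GGAATG (either strand, 12.6%). Each held 1 E-box, CANNTG (either strand, present in 66.2% of windows). Of the receptor genes, Mertk and Tyro3 each had 3 GC boxes in the window and no match to the other motifs, and Axl had 1 GC box, 10 bases before the start, and 1 TEAD motif, 233 bases before it. The starts used for Axl and Tyro3 lie inside the annotated gene, and those windows are not printed. These matches describe letters and not bound sites.

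Axl encodes the receptor with the highest known affinity for Gas6. Its log2 signals were 12.25, 12.44 and 12.34 on shRras2 replicates 4, 5 and 6, against 12.66, 12.56 and 12.63 on pLKO replicates 1, 2 and 3. The shRras2 arrays were all lower, but the highest of them came within 0.12 of the lowest pLKO array. The means were 12.35 ± 0.09 in shRras2 and 12.62 ± 0.05 in pLKO (SD, n = 3 each), a difference of -0.27 ± 0.08 (SE), so 82.9% of the pLKO signal remained. In all, 13.7% of genes had a larger absolute difference. The remaining signal was 77.9% on replicate 4, 88.3% on replicate 5 and 82.8% on replicate 6.

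Mertk encodes the receptor best known for the uptake of dying cells by macrophages. It had 7.26, 7.61 and 7.43 on shRras2 replicates 4, 5 and 6, against 7.74, 7.74 and 7.92 on pLKO replicates 1, 2 and 3. The shRras2 arrays were lower, with replicate 5 closest to the controls and 0.13 below the nearest of them. The means of 7.44 ± 0.18 in shRras2 and 7.80 ± 0.10 in pLKO (SD, n = 3 each) differed by -0.37 ± 0.11 (SE), with 77.6% of the signal remaining. A single array, pLKO replicate 3, reached the background limit, so whether Mertk was expressed in either group is not settled by these values, and a low signal can understate a change.

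Tyro3 encodes the TAM receptor best known from the nervous system. It had 7.24, 7.40 and 7.48 on shRras2 replicates 4, 5 and 6, against 7.85, 7.73 and 7.74 on pLKO replicates 1, 2 and 3. The groups were 0.24 apart at their nearest arrays, and 0 of the 6 arrays reached the background limit. The means were 7.37 ± 0.13 in shRras2 and 7.77 ± 0.07 in pLKO (SD, n = 3 each), a difference of -0.40 ± 0.09 (SE), with 75.9% of the signal remaining. The order of the shRras2 arrays was not that of Mertk or Axl, since replicate 6 and not replicate 5 was nearest to the controls.

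**Figure D2:**
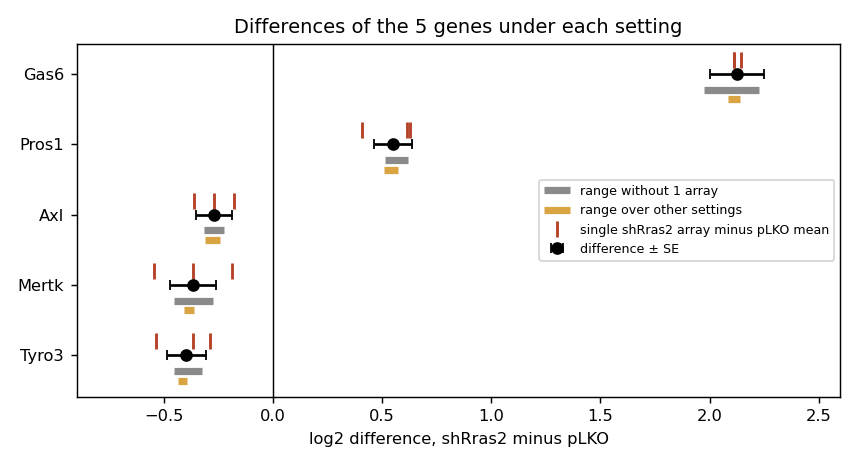
Log2 difference, shRras2 minus pLKO (x axis), of the 5 genes. Black points are the differences with SEs, red ticks are single shRras2 arrays against the pLKO mean, grey bars are the range when 1 array is left out, and yellow bars the range over the other settings. The ligands lie right of 0 and the receptors left of 0 under every setting drawn, with Gas6 between 1.98 and 2.23 when 1 array is left out.

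The profile of Gas6 over the 6 arrays was compared with those of 7968 other named genes whose mean over the 6 arrays lay above background, as the root mean square difference of log2 values centred on each gene's mean. The most similar was Stmn2, which encodes a microtubule-destabilizing protein of neurons, with a root mean square difference of 0.10. It averaged 10.63 in shRras2 and 8.38 in pLKO. Next came Adamts5, a proteoglycan-cleaving protease gene (0.17), Rgs4, a regulator of G-protein signalling (0.22), Myl4, an embryonic myosin light chain gene (0.26), and C1qtnf3, which encodes a secreted C1q-related protein (0.29). The nearest to Pros1 were Cap2, Ccndbp1, Jup, Arhgef25 and Dact1 (0.04 to 0.05), and to Axl Nhp2, Zfp280c, Pa2g4, Eef1akmt1 and Wdr36 (0.02 to 0.03). Gas6, Adamts5 and Rgs4 passed that filter through their shRras2 levels, and their pLKO means lay near background. Within a root mean square difference of 0.1 lay 0 genes for Gas6, 105 for Pros1 and 1305 of 7968 for Axl. The 5 genes named for Axl are therefore a few among many of like profile. Likeness over 6 arrays of 2 groups mostly reflects the group difference, and it says nothing of shared control.

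**Figure D3:**
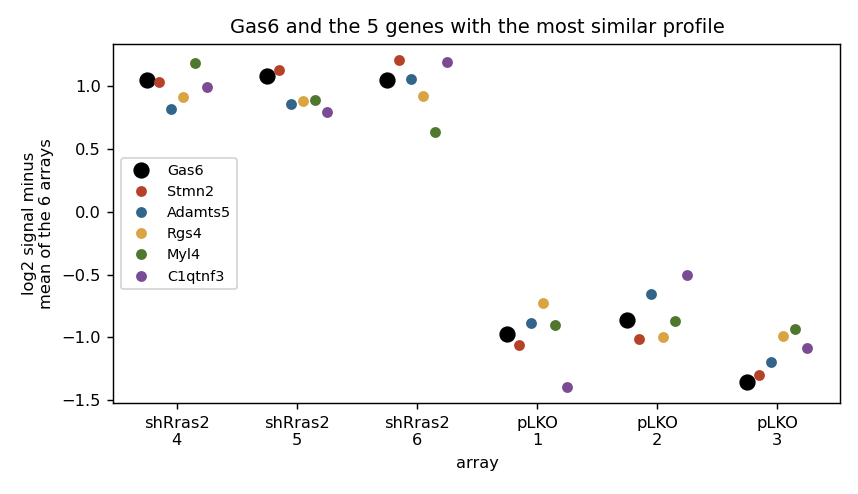
Log2 signal minus the mean of the 6 arrays (y axis) of Gas6 (large black points) and the 5 genes of most similar profile on each array (x axis). All 6 genes lie above 0 on the shRras2 arrays and below 0 on the pLKO arrays, and Stmn2 follows Gas6 most closely.

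Genes that work with these ligands and receptors were read from the same fit over all genes, with an adjusted p of 0.05 as the threshold. Over 9 lists of such genes 150 were measured, of which 18 rose, 4 fell and 128 did not pass, so 14.7% passed. Over all genes 5.21% passed, 2.99% higher and 2.22% lower. An unadjusted p under 0.05 was found for 3733 of all 19505 genes, the share to set beside such counts in the lists below. The median log2 difference of the 150 genes was 0.04, beside -0.01 for all genes. The lists were chosen with earlier results known and were not matched to all genes in signal level. The excess over the share of all genes was not tested. The count of 22 fell to 11 without pLKO replicate 1, to 14 without pLKO replicate 2, to 12 without pLKO replicate 3, to 11 without shRras2 replicate 4 and to 12 without shRras2 replicate 6.

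The enzymes that carboxylate the ligands and recycle vitamin K had 0 of 8 genes past limma's threshold, and 1 with an unadjusted p under 0.05, Nqo1 (list median -0.08). The carboxylase gene Ggcx, named here as the enzyme itself and outside the naming rule, had 10.54, 10.17 and 10.46 on shRras2 replicates 4, 5 and 6, against 10.33, 10.24 and 10.23 on pLKO replicates 1, 2 and 3. These groups overlapped, and the difference was 0.13 ± 0.11 (SE; limma adjusted p = 0.585). The brightest of the list were Pdia3, an endoplasmic reticulum disulfide isomerase gene (0.09 ± 0.07), and Calu, which encodes the calcium-binding protein calumenin (-0.01 ± 0.08), and neither passed (limma adjusted p = 0.585 and 0.984). Of 15 other genes counted as vitamin K-dependent, 3 rose and 0 fell (median 0.05). Prrg1, a transmembrane protein with such a carboxylated domain, rose to 9.34 ± 0.17 in shRras2, against 8.41 ± 0.06 in pLKO (SD, n = 3 each; 1.91-fold, limma adjusted p = 0.00181). Postn, the matricellular protein periostin, rose 4.06-fold (limma adjusted p = 0.0087), and did not pass with trend and robust eBayes (adjusted p = 0.0722). Mgp, an inhibitor of matrix calcification, rose by 0.45 (limma adjusted p = 0.0317) but passed in 1 of the 6 fits without 1 array, that without pLKO replicate 2, and its adjusted p reached 0.119 without shRras2 replicate 4.

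Among 13 other ligands and binding partners of the receptors, 1 rose and 0 fell (median 0.12). Pdgfrb, a growth factor receptor gene, rose by 0.37 (limma adjusted p = 0.0486) and passed in 1 of the 6 fits without 1 array, that without shRras2 replicate 5, with an adjusted p up to 0.166 without pLKO replicate 1. Lgals3, which encodes galectin-3, a reported Mertk ligand, differed by 0.16 ± 0.10 and the receptor kinase gene Met by 0.15 ± 0.08, and neither passed (limma adjusted p = 0.437 and 0.356). Proteases that shed the receptors and their regulators had 2 rises and 1 fall among 11 genes (median 0.06). Timp3, an inhibitor of such proteases, rose by 0.54 and Rhbdf2, which helps Adam17 mature, by 0.40, while the gamma-secretase subunit gene Aph1a fell by 0.52 (limma adjusted p = 0.0250, 0.0314 and 0.0186). Without 1 array, Timp3 passed in 1 of 6 fits (without shRras2 replicate 5; up to 0.101 without shRras2 replicate 4), Rhbdf2 in 1 (without shRras2 replicate 6; up to 0.119 without shRras2 replicate 4), and Aph1a in 3 (lost without pLKO replicates 1 and 3 and shRras2 replicate 6; up to 0.0785). Rhbdf2 was near background in both groups. The sheddase genes themselves, both outside the naming rule, differed by 0.11 ± 0.08 for Adam10 and 0.08 ± 0.08 for Adam17 (SE; limma adjusted p = 0.489 and 0.688).

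Of 32 adaptors and effectors of the receptors 1 rose, 1 fell and 30 did not pass (median -0.03). Pik3r1, the regulatory PI3K subunit that activated TAM receptors recruit, had 10.72, 10.85 and 10.81 on shRras2 replicates 4, 5 and 6, against 10.21, 10.08 and 10.22 on pLKO replicates 1, 2 and 3. It rose by 0.63 ± 0.08 (SE; limma adjusted p = 0.00429) and passed in all 6 fits without 1 array. Twist2, a transcription factor of the Twist pair that acts after Axl in innate immune cells, fell by 0.70 ± 0.11 (SE) and was near background in both groups (limma adjusted p = 0.00802).

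Other receptors and bridges for phosphatidylserine, outside the TAM family, had 3 rises and 1 fall among 21 genes (median 0.02). Gulp1, an engulfment adaptor, rose 2.14-fold to 10.35 ± 0.33 in shRras2, against 9.25 ± 0.16 in pLKO (SD, n = 3 each; limma adjusted p = 0.00666). The bridging protein genes Thbs1 and Edil3 rose by 0.67 ± 0.08 and 0.54 ± 0.08 (SE; limma adjusted p = 0.00272 and 0.00617), and these 3 rises passed in all 6 fits without 1 array. Itgav, the integrin chain that reads such bridges, fell by 0.44 (limma adjusted p = 0.0310) and passed in 1 of the 6 fits, that without shRras2 replicate 5, with an adjusted p up to 0.107 without shRras2 replicate 4. Mfge8, the bridging protein milk fat globule factor 8 gene and outside the naming rule, differed by 0.01 ± 0.13 (SE; limma adjusted p = 0.986). Scramblase and flippase genes, which set phosphatidylserine on the cell surface, had 0 of 17 past limma's threshold and 1 with an unadjusted p under 0.05 (median 0.01). The brightest were the flippase subunit gene Tmem30a (-0.09 ± 0.07) and the scramblase gene Ano6 (-0.14 ± 0.08), and neither passed (limma adjusted p = 0.558 and 0.406).

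Transcription factors described in other systems as regulators of Axl, Mertk or Gas6 had 4 rises and 1 fall among 24 genes (median 0.11). Fosl1, an AP-1 subunit known to drive Axl, had 10.18, 10.71 and 10.42 on shRras2 replicates 4, 5 and 6, against 11.08, 11.06 and 11.18 on pLKO replicates 1, 2 and 3. It fell by 0.67 ± 0.13 (SE; limma adjusted p = 0.0218), and in fits without 1 array it passed in 1 of 6, that without shRras2 replicate 5, with an adjusted p up to 0.0866 without pLKO replicate 3. The nuclear receptor gene Pparg rose by 0.68 near background in both groups, the AP-1 gene Jund by 0.53 and the TEAD factor gene Tead3 by 0.46 (limma adjusted p = 0.00641, 0.0125 and 0.0128). Jund was lost without pLKO replicate 1 (0.0567) and without shRras2 replicates 4 and 6 (0.0523 and 0.0521), and Tead3 without pLKO replicate 1 (0.0618) and shRras2 replicate 4 (0.0567). Fosl2, another AP-1 gene and outside the naming rule, moved opposite to Fosl1 and rose by 0.40 ± 0.09 (SE; limma adjusted p = 0.0361). It passed in 1 of the 6 fits without 1 array, with an adjusted p up to 0.131. The part of these factors in the levels of the 5 genes was not tested.

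Of 9 genes known, as Gas6 is, from growth-arrested fibroblasts, 4 rose, 0 fell and 5 did not pass (median 0.48). Selenop, a selenium transport protein gene, had 9.30, 9.21 and 9.16 on shRras2 replicates 4, 5 and 6, against 7.94, 8.08 and 7.66 on pLKO replicates 1, 2 and 3. It rose 2.51-fold (limma adjusted p = 0.000799) and passed in all 6 fits without 1 array, as did Gas2, a cytoskeletal protein gene, with a rise of 0.61 ± 0.08 (SE; limma adjusted p = 0.00554). The pLKO means of Selenop and Gas2 lay near background, as did shRras2 replicate 4 of Gas2, so the sizes of these rises are imprecise. Dcn, the matrix proteoglycan decorin, and Igfbp5, which binds insulin-like growth factors, rose by 0.76 and 1.34 near background (limma adjusted p = 0.0230 and 0.0373). Dcn passed without pLKO replicate 1 and without shRras2 replicate 5, and Igfbp5 without shRras2 replicate 5, with adjusted p up to 0.0943 and 0.137, both without shRras2 replicate 4. Gas1 and Cdkn1b, outside the naming rule, differed by 0.02 ± 0.11 and 0.22 ± 0.08 and did not pass (limma adjusted p = 0.960 and 0.182).

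**Figure D4:**
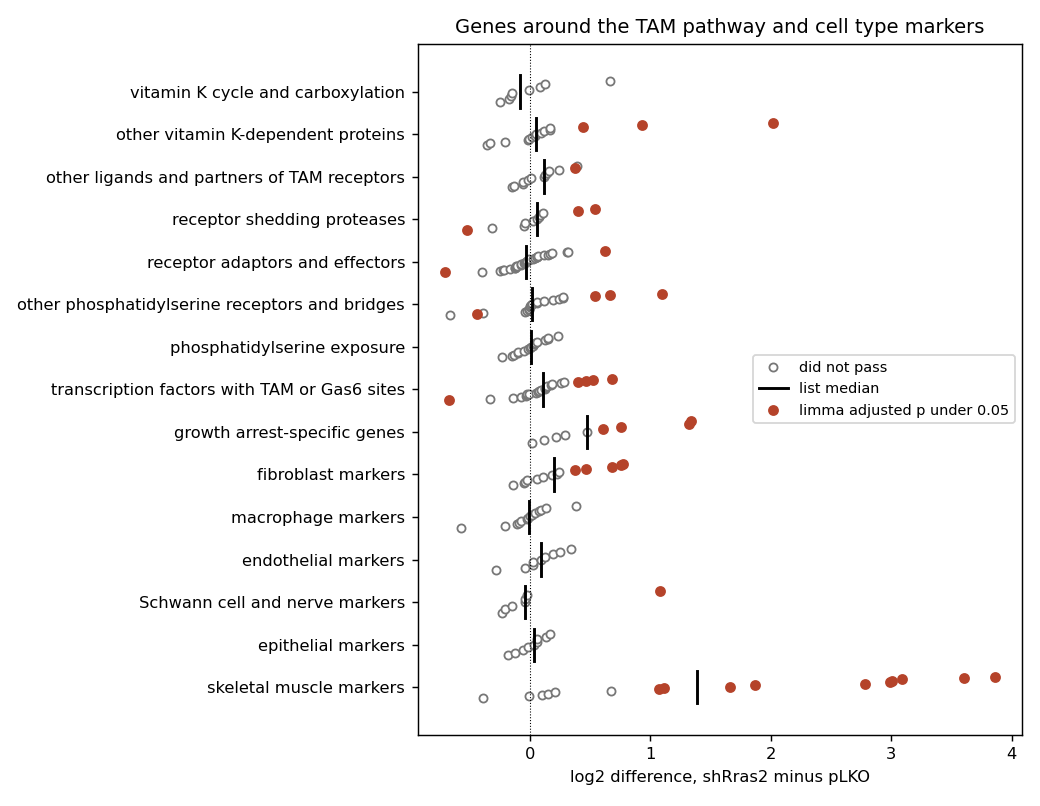
Log2 difference, shRras2 minus pLKO (x axis), of every measured gene in 9 lists around the TAM pathway and 6 lists of cell type markers (rows). Filled points had a limma adjusted p under 0.05, open points did not, and black bars are list medians. Most pathway genes lie near 0, the growth arrest-specific genes have a median of 0.48 and the skeletal muscle markers one of 1.39.

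The cells were checked against markers of the cell types known for these genes. Of all 19505 genes measured, 8131 had a mean over the 6 arrays above background. Of 14 fibroblast markers 9 had a mean above background, among them Vim, Sparc and Fn1, while Fap, Lum, Thy1, Col1a2 and Dcn were near background. Markers named here only for their level lie outside the naming rule. Of the 14, 5 rose (Col6a1, Dcn, Col3a1, Col5a1 and Pdgfrb) and 0 fell. Dcn and Pdgfrb are the same genes already given as rises above. The number of rises was 0 without pLKO replicate 3, without shRras2 replicate 4 or without shRras2 replicate 6, 2 without pLKO replicate 1 and 3 without pLKO replicate 2. The mean log2 signal of the fibroblast list was 9.43 to 9.66 on shRras2 arrays and 9.27 to 9.36 on pLKO arrays. Macrophage markers, which include Csf1r, Adgre1 and Ptprc, had 0 of 14 genes above background and 0 past limma's threshold. An unadjusted p under 0.05 was found for 3 of these 14, beside 3733 of all 19505 genes. The mean of the macrophage list was 5.22 to 5.34 on shRras2 and 5.30 to 5.36 on pLKO arrays. Endothelial markers had 0 of 9 above background and 0 past limma's threshold, with 3 at an unadjusted p under 0.05. The mean of that list was 5.36 to 5.47 on shRras2 and 5.31 to 5.36 on pLKO arrays. Epithelial markers had 0 of 9 above background and 0 at an unadjusted p under 0.05 (mean 5.95 to 6.07 on shRras2 and 5.93 to 6.09 on pLKO arrays). Of 7 Schwann cell and nerve markers only the neuronal tubulin gene Tubb3 was above background, and it rose by 1.08 (limma adjusted p = 0.00336, list mean 6.13 to 6.22 on shRras2 and 6.05 to 6.15 on pLKO arrays). Skeletal muscle markers moved with the knockdown: 10 of 16 rose and 0 fell (median 1.39), among them Myl1, a myosin light chain gene, with 11.08, 10.25 and 10.90 on shRras2 replicates 4, 5 and 6, against 6.45, 6.91 and 7.30 on pLKO replicates 1, 2 and 3 (limma adjusted p = 0.000223). The pLKO values of Myl1 lay near background, so a fold is not given. Of the 16 muscle markers, 4 had a mean over the 6 arrays above background and 12 did not. The mean of the muscle list was 7.55 to 8.12 on shRras2 arrays and 6.18 to 6.38 on pLKO arrays. The part of the muscle markers in the levels of Gas6 and Pros1 was not tested. In such bulk samples fewer cells of a type and less RNA per cell cannot be told apart.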

How the data were processed

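RNA of 6 samples of fibrosarcoma cells was measured on Affymetrix arrays, 1 per sample. Per the submitters' processing notes, the authors used RMA and R 3.6.3, and the deposited values lie on a log2 scale, 1 per probe set. The method removes background, equalizes the distributions of the arrays and combines probes, so levels are relative and low signals are compressed. Its package version was not given in the sources used here. Of 29129 probe sets, 19572 had 1 symbol and 0 had several in the platform annotation, while 2634 transcript probe sets had none. The brightest probe set was kept for the 55 genes that had several, leaving 19505 genes. Groups were compared with limma 3.58.1 in R 4.3.3 (lmFit, eBayes, two-sided, no covariates, Benjamini-Hochberg over all genes, threshold 0.05, residual degrees of freedom 4). Members and lists were chosen with earlier results of these data known. The naming rule takes the members, Rras2, the genes nearest in profile to a member above background, and per list up to 4 called genes with the largest change and up to 2 of the other sign, or, where fewer than 2 were called, up to 2 of the brightest. Alternatives were median centring, cyclic loess, leaving out the lowest 30% of genes, averaging probe sets, every probe set, trend and robust eBayes, array weights and leaving out each array. On simulated data for the comparison of shRras2 and pLKO, with 19505 genes, 19 of 67 genes changed by 0.5, 61 of 67 changed by 1 log2 unit and 66 of 66 changed by 2 were recovered. Precision is limited by the number of arrays (median SE of the log2 differences 0.096).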

Additional observations from a re-analysis of the deposited data

How the results depend on the processing

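The differences of Gas6, Pros1, Axl, Mertk and Tyro3 and that of Rras2 kept their sign under all 12 alternatives, and those of the 5 genes moved by less than the SD pooled over both groups. Leaving out the lowest 30% of genes, averaging probe sets and trend and robust eBayes could not move these differences, so they add nothing here. Without 1 array, Gas6 ranged from 1.98 to 2.23, Pros1 from 0.51 to 0.62, Axl from -0.32 to -0.23, Mertk from -0.46 to -0.28 and Tyro3 from -0.45 to -0.33. The number of genes past the threshold was 1908 with trend and robust eBayes, against 1017 as reported, a change whose cause was not tested, and 392 to 1136 without 1 array. The 22 pathway genes numbered 11 to 22 without 1 array. Centring each array on its median gave 506 higher and 567 lower, against 584 and 433. Of 515 comparisons for 43 named genes outside the family, 63 lost the call and 5 gained it (all Cd14). The 515 include genes not called as reported, such as Calu, which have no call to lose. Changes of sign were counted only for genes called in either fit, and there were 0. Uncalled genes did change sign, such as Calu (-0.01 as reported, 0.04 without shRras2 replicate 5) and the epithelial marker Krt14 (0.04 as reported, -0.09 without pLKO replicate 1). Apart from leaving out arrays, Postn, Igfbp5 and Col3a1 lost theirs with trend and robust eBayes (adjusted p = 0.0722, 0.0945 and 0.0557), and Pdgfrb and Rhbdf2 with median centring (0.0599 and 0.0508); the cause was not tested. No paired analysis was run because the labels state no pairing of the arrays. Mertk, Tyro3 and, in pLKO, Gas6 lie near background, which limits their folds.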
